A study of Mus musculus with 13 samples.

Results

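Regrowing mouse liver was compared 48 h after partial hepatectomy, with 2 tissue sections, and 24 h after it, with 2 tissue sections, which are 4 of the 13 sections of a time course from 0 h to 6 months. The sections were chosen by their labelled time alone. All came from male C57BL/6 mice aged 2 months from which 2/3 of the liver had been removed, all were cut from frozen, newly regrown lobes, and all 4 lay on slide 1. The labels name no genetic change and no drug. Apart from the position on the slide, the only labelled difference between the groups was the time after surgery. Transcripts of a chosen panel of 100 genes were detected one by one in the tissue by Molecular Cartography, an in situ imaging method of Resolve Biosciences.

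After partial hepatectomy, the remaining hepatocytes of a rodent liver leave rest and divide while they go on with the metabolic work of the organ. That work is divided along the lobule: hepatocytes around the portal vein make urea and glucose, whereas those around the central vein make glutamine, express most drug-metabolising cytochromes and depend on Wnt signals from the neighbouring endothelium. A comparison of 48 h with 24 h asks which of these functions differ between an earlier and a later moment of the regrowth, in level and in place along the lobule.

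The sections held 9676 and 9590 cells at 48 h, and 6471 and 4586 cells at 24 h. Counts within cells summed to 3224645 and 3498479 at 48 h, and to 2275395 and 1678015 at 24 h. The median cell had 328 and 359 counts at 48 h, and 351 and 356 counts at 24 h. The titles of the 24 h sections name 1 shared slide position and give neither section a number. Their counts were therefore added into 1 library in the test of levels, and their values averaged in the test of place. Whether any sections come from different animals is not labelled, and the spread behind the p-values may be technical. Section 1 and section 2 at 48 h stood further apart than the 24 h sections: 11 of 99 genes differed between them by more than 1 on the log2 scale, against 4 genes at 24 h. By their titles the 48 h sections lay at different slide positions, so the pairs of sections were not alike in this. The 48 h sections shared 1 cell name with each other, and section 1 at 48 h shared 1 with a 24 h section. The hepatocyte genes Cps1, Pck1 and Cyp2e1 lay between 55480.2 and 216408 CPM in all 4 sections, where CPM is the share of the library's counts times 1e+06 after TMM scaling. The endothelial markers Pecam1, Wnt2, Wnt9b and Rspo3 together reached 3731 and 4184 CPM at 48 h, and 4425 and 4696 CPM at 24 h. This difference depended on the scaling. The median log2 fold change of these markers was -0.26, and 0.02 with total-count scaling. Pecam1 was found in 32.9% and 32.1% of all cells at 48 h, against 32.5% and 33.0% at 24 h. The macrophage and leukocyte markers Adgre1, Lyz2 and Ptprc summed to 4862 and 3501 CPM at 48 h, and to 4757 and 4973 CPM at 24 h.

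Among 99 genes tested, 5 passed an adjusted p of 0.05 in edgeR's quasi-likelihood test with Benjamini-Hochberg adjustment, which is 5.05% of them. Csad, Gstm1 and Hsd17b13 were higher at 48 h (3.03%), and Cps1 and Fzd2 were lower (2.02%). In the test of place, Cyp1a2 and Lrp5 were more central at 48 h among 62 genes tested (3.23%). Promoter windows of these genes are shown first because they are the DNA next to the start sites of the genes whose level or place differed. Of the 7 genes, 4 have an entry in the RefSeq promoter table used here (GRCm38.p6), as do 71 of the 100 panel genes. The 250 bases before the start are given for 3 of them, 5′ to 3′ on the gene's strand. Capitals mark matches on either strand to a searched motif. The first motif was the box TATAAA near many start sites. The next was CTTTGA, a core bound by the TCF and LEF factors of Wnt signalling. Another was GCGTG, a core bound by the aryl hydrocarbon receptor.
Cyp1a2, chr9:57683656-57683905, minus strand: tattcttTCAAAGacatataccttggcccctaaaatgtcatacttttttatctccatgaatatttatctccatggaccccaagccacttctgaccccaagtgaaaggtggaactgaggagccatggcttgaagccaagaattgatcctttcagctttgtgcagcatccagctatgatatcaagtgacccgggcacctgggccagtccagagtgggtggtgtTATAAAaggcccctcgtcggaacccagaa
Gstm1, second entry, chr3:108017819-108018068, minus strand: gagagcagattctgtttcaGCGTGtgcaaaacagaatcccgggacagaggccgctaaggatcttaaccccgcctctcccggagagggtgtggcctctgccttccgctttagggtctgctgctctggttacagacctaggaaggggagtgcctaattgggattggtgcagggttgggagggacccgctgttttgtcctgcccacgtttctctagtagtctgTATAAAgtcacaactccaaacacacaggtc
Hsd17b13, chr5:103977389-103977638, minus strand: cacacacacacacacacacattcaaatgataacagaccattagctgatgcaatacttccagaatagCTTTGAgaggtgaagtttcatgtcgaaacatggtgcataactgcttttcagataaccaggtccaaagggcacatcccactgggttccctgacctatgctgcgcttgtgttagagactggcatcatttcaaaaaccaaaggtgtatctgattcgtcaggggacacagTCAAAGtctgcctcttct

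The Cyp1a2 window held 1 TATAAA match and 1 CTTTGA match. The second Gstm1 window, shown here, held 1 TATAAA match and 1 GCGTG match. The first Gstm1 window, which is not shown, held 1 GCGTG match and no TATAAA. The Hsd17b13 window held 2 CTTTGA matches. Neither of 2 Csad windows held a match, and no window of the 4 genes held TGACNNNGC, the core of the antioxidant response element. Of 32851 RefSeq windows of the same length, 12.4% held TATAAA, 13.8% CTTTGA, 28.2% GCGTG and 10.2% TGACNNNGC. A match describes the letters and is not a bound site.

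The largest rise was that of Csad, the enzyme that makes the taurine precursor hypotaurine, used to conjugate bile acids. Csad had 317 and 376 CPM at 48 h, against 39.7 and 37.1 CPM at 24 h, from 1085 and 1618 counts at 48 h and 87 and 60 counts at 24 h. Both 48 h sections lay far above both 24 h sections. The log2 fold change was 3.17 ± 0.80 (SE), an 8.98-fold difference, with an adjusted p of 0.0294 in edgeR.

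Gstm1, a mu-class glutathione transferase that conjugates electrophiles, rose as well. It had 517 and 543 CPM at 48 h, against 81.1 and 66.1 CPM at 24 h. The groups did not overlap, and the log2 fold change was 2.82 ± 0.61 with an adjusted p of 0.0158 in edgeR. The other 2 measured transferases differed less: Gstm3 had 40719 and 38217 CPM at 48 h, against 26013 and 17804 CPM at 24 h (log2 fold change 0.81 ± 0.31, adjusted p 0.148 in edgeR). Gstm2 had 7326 and 9189.8 CPM at 48 h, and 8794 and 6901 CPM at 24 h, so its groups overlapped, and its sign turned under other scalings. Of the 3 transferases, 1 passed, where 5.05% of all tested genes did. Their median log2 fold change was 0.81, beside 0.02 over all genes tested.

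Hsd17b13, a hepatocyte protein of the lipid droplet surface, was higher at 48 h as well. It had 7331 and 8847 CPM at 48 h, against 3518 and 2127 CPM at 24 h. Both 48 h sections exceeded both 24 h sections, with a log2 fold change of 1.47 ± 0.36 (adjusted p 0.0248 in edgeR). Among 8 genes of lipid handling it was the only one to pass in this fit, where 5.05% of all tested genes did. The list's median was 0.32, beside 0.02 over all genes tested. Fads1, a fatty acid desaturase, had 11390.3 and 15267 CPM at 48 h, against 6991 and 7516 CPM at 24 h (log2 fold change 0.89 ± 0.34, adjusted p 0.148 in edgeR). Apom, an apolipoprotein of HDL, had 9736 and 9869 CPM at 48 h, against 5941 and 4667 CPM at 24 h (0.86 ± 0.37, adjusted p 0.209 in edgeR). Neither pair of groups overlapped, but neither gene passed.

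Cps1, the mitochondrial enzyme that starts the urea cycle, was lower at 48 h. It had 55480.2 and 68355 CPM at 48 h, against 138372 and 134833 CPM at 24 h. No section of one time reached the range of the other, and the log2 fold change was -1.14 ± 0.29 (adjusted p 0.0248 in edgeR). Of 6 genes of urea and glutamine metabolism, it alone passed, where 5.05% of all tested genes did. The list's median was -0.40, and -0.13 with total-count scaling, beside 0.02 and 0.27 over all genes tested. Oat, the ornithine aminotransferase of central hepatocytes, had 6714 and 11524 CPM at 48 h, against 27314 and 29468 CPM at 24 h. This log2 difference of -1.63 ± 0.48 did not pass here (adjusted p 0.0812 in edgeR). Over the alternative settings Oat passed in 16 of 29, as many as Cps1 with 16 of 29. Gls2, the glutaminase of portal hepatocytes, had 2778 and 2299 CPM at 48 h, against 1322 and 945 CPM at 24 h (1.13 ± 0.37, adjusted p 0.0843 in edgeR). Glul, the glutamine synthetase of the innermost central cells, had 4662 and 10111 CPM at 48 h, and 8339 and 15548 CPM at 24 h, so the groups overlapped. Ass1 and Arg1, which carry the urea cycle on, had log2 fold changes of 0.30 and -0.17 without passing, and the sign of Arg1 turned with total-count scaling and relative to cell number.

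Fzd2, a Wnt receptor, was the scarcest gene to pass. It gave 4 and 5 counts at 48 h, against 17 and 21 counts at 24 h. That is 1.17 and 1.16 CPM at 48 h, against 7.75 and 13.0 CPM at 24 h, and a log2 fold change of -3.07 ± 0.80 (adjusted p 0.0260 in edgeR). It was the only one of 12 Wnt receptors and co-receptors to pass, where 5.05% of all tested genes did. The list's median was 0.04, beside 0.02 over all genes tested. Of the compared times, only 24 h, where Fzd2 was higher, reached the 10 counts that the filter asked of a library. With so few counts the size of the Fzd2 difference is poorly known. At such counts, fewer cells with Fzd2 and less Fzd2 RNA per cell cannot be told apart.

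**Figure D1:**
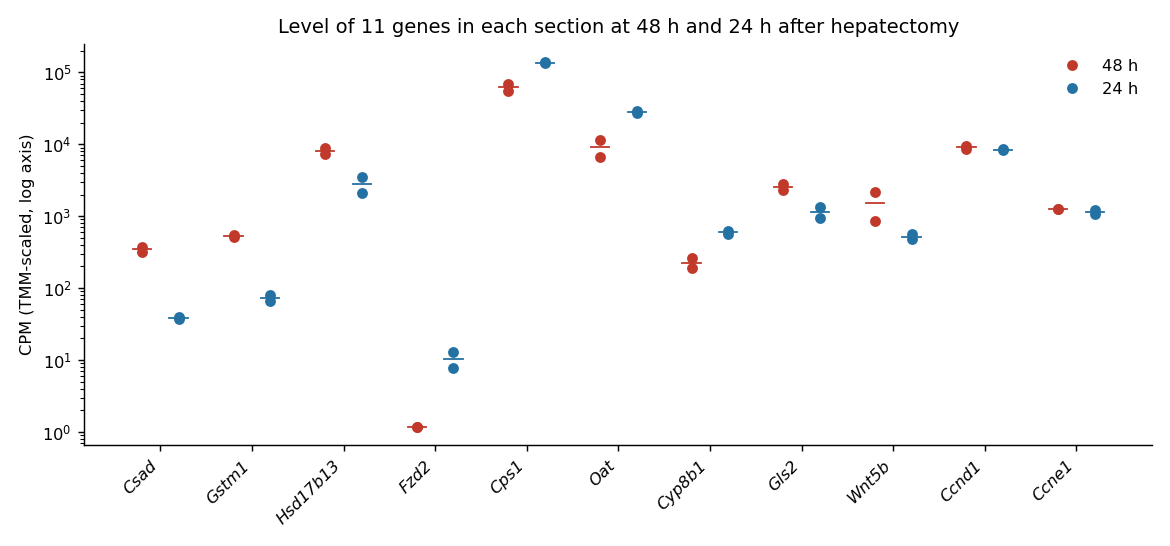
Levels of 11 genes in each section, as CPM after TMM scaling on a log axis, with 48 h (red) left of 24 h (blue); each point is a section and each bar the mean of 2. Csad, Gstm1 and Hsd17b13 lie higher at 48 h, Fzd2 and Cps1 lower, and Ccnd1 and Ccne1 lie close together.

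At the neighbouring times, Csad had 389.9 and 84.8 CPM at 0 h and 338 and 247 CPM at 72 h. Gstm1 had 72.4 and 119 CPM at 0 h and 332 and 495 CPM at 72 h. Cps1 had 93171 and 126177 CPM at 0 h and 62893 and 68003 CPM at 72 h. The 72 h sections thus lay nearer to the 48 h than to the 24 h values for these 3 genes, as a description without a test.

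The 5 calls depended on the scaling and on single sections. With total-count scaling, none passed in edgeR, with adjusted p of 0.0517 for Gstm1 and Hsd17b13, 0.0860 for Csad and Cps1 and 0.0909 for Fzd2, while 15 genes were higher and 4 lower at an unadjusted p under 0.05. That scaling moved the median of all genes by 0.25. None of the 5 passed without section 1 at 48 h, section 2 at 48 h, section 2 at 24 h or section 1 at 14 d, although each kept its direction. Without section 2 at 24 h, the log2 fold changes were 3.13 for Csad, 2.71 for Gstm1, 1.20 for Hsd17b13, -1.16 for Cps1 and -2.70 for Fzd2. Within slide 1 alone, Cps1 did not pass (-1.10, adjusted p 0.219 in edgeR).

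**Figure D2:**
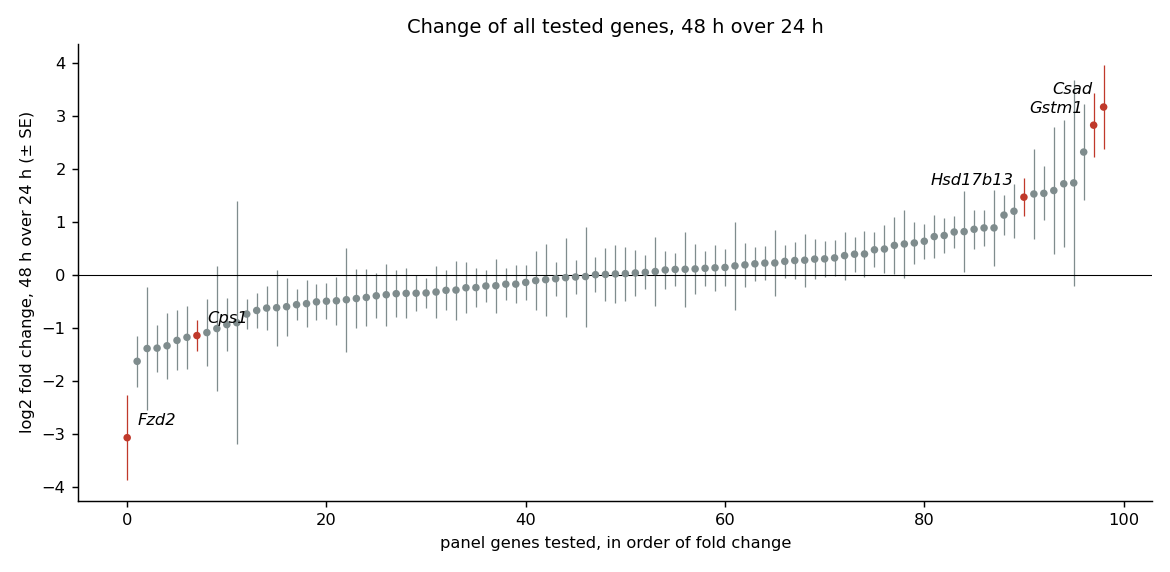
Log2 fold change, 48 h over 24 h, of the 99 tested genes in order of size, with bars of 1 SE; red marks the 5 genes that passed. Csad at 3.17 and Fzd2 at -3.07 are the ends of the range.

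By separation of sections, 32 genes (32.3%) had both 48 h sections above both 24 h sections and 28 genes (28.3%) had both below. With total-count scaling this split was 44 above and 16 below. The largest such differences that did not pass were Sulf2, Ccnb1 and Wnt8a above, and Oat, Fzd10 and Cyp8b1 below. Sulf2, a sulfatase that edits heparan sulfate, had 53.1 and 208 CPM at 48 h, against 32.8 and 17.3 CPM at 24 h (2.32 ± 0.90, adjusted p 0.185 in edgeR). Its 48 h sections differed from each other by more than 1 on the log2 scale, and without section 2 at 48 h the difference was 1.11. Wnt5b, a Wnt ligand of the non-canonical type, had 862 and 2184 CPM at 48 h, against 559.8 and 477 CPM at 24 h (1.54 ± 0.51, adjusted p 0.0843 in edgeR). Its 48 h sections differed by more than 1 on the log2 scale too, and without section 2 at 48 h the difference was 0.81. Cyp8b1, which sets the share of cholic acid among bile acids, had 192 and 261 CPM at 48 h, against 573 and 613 CPM at 24 h (-1.38 ± 0.45, adjusted p 0.0843 in edgeR). Cyp7a1, which starts the classic route of bile acid synthesis and limits its rate, had 307 and 2325 CPM at 48 h, and 387 and 407 CPM at 24 h. Section 2 at 48 h alone was high, and the groups overlapped. Of 4 genes of bile acid and taurine synthesis, Csad alone passed, where 5.05% of all tested genes did. The median was 1.03, beside 0.02 over all genes tested. That median lies between Cyp27a1 (0.32) and Cyp7a1 (1.73), and leaving out single sections moved Cyp7a1 between -0.27 and 2.34. G6pc, the last step of glucose release, had 13954 and 4996 CPM at 48 h, against 20366 and 17411 CPM at 24 h (-1.01 ± 1.18, adjusted p 0.743 in edgeR). Hif1a, a transcription factor of the hypoxia response, had 61.9 and 148 CPM at 48 h, against 41.0 and 30.3 CPM at 24 h (1.53 ± 0.85, adjusted p 0.376 in edgeR). Both genes differed between the 48 h sections by more than 1 on the log2 scale. G6pc was at -2.15 without section 1 and at -0.36 without section 2 at 48 h, and Hif1a at 0.86 without section 2 at 48 h. Fzd10, a Wnt receptor, was scarce at 1.17 and 0.465 CPM at 48 h, against 2.28 and 1.85 CPM at 24 h, and the ligand Wnt8a at 1.75 and 3.02 CPM at 48 h, against 0.456 and 1.24 CPM at 24 h. Fzd10 was at -2.31 without section 1 and -0.74 without section 2 at 48 h, and Wnt8a at 0.88 without section 1 at 24 h. Cldn7, a tight junction protein of bile duct cells, had 47.6 and 45.8 CPM at 48 h, against 103 and 119 CPM at 24 h (-1.24 ± 0.57, adjusted p 0.242 in edgeR).

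None of 4 cyclins passed in edgeR, where 5.05% of all tested genes did. Ccnd1, which drives entry into G1, had 8629.6 and 9525 CPM at 48 h, against 8542 and 8329.8 CPM at 24 h (0.10 ± 0.32). Ccne1, the cyclin of S phase entry, had 1242 CPM in each 48 h section, against 1219 and 1067 CPM at 24 h (0.11 ± 0.70). Neither cyclin differed by more than its error. Ccna1, a cyclin best known from germ cells, was scarce at 2.04 and 7.20 CPM at 48 h, and 4.56 and 3.71 CPM at 24 h. Ccnb1, the mitotic cyclin, was scarce too, with 6 and 22 counts at 48 h and 2 counts in each 24 h section. That is 1.75 and 5.11 CPM at 48 h, against 0.912 and 1.24 CPM at 24 h (1.72 ± 1.20). For Ccna1 and Ccnb1 alike, the 48 h sections differed from each other by more than 1 on the log2 scale. The signs of Ccnd1, Ccne1 and Ccna1 turned under DESeq2, without a filter and with scaling without Cyp2e1.

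Within the Wnt pathway, none of 18 tested ligands passed in edgeR, where 5.05% of all tested genes did. Their median log2 fold change was -0.28, and -0.02 with total-count scaling, beside 0.02 and 0.27 over all genes tested. Of 7 modulators none passed, nor did any of 8 hepatic Wnt target genes, whose median was -0.37, and -0.11 with total-count scaling. Wnt11, a ligand of the non-canonical type, had 9.92 and 14.9 CPM at 48 h, against 20.1 and 47.0 CPM at 24 h (-1.34 ± 0.62, adjusted p 0.243 in edgeR), and its difference was -0.69 without section 2 at 24 h. Wnt7b, another ligand, had 10.2 and 8.13 CPM at 48 h, against 20.1 and 21.6 CPM at 24 h (-1.18 ± 0.59, adjusted p 0.302 in edgeR). Rspo1, which amplifies Wnt signals, had 6.42 and 15.6 CPM at 48 h, against 27.8 and 17.9 CPM at 24 h (-1.09 ± 0.63, adjusted p 0.388 in edgeR), and its difference was -1.78 without section 2 at 48 h. None of the 3 passed. That both 48 h sections lay lower was a condition for naming them, and it held for 28.3% of all tested genes. Lgr5, an R-spondin receptor of central hepatocytes, had 87.0 and 104 CPM at 48 h, against 196 and 164 CPM at 24 h (-0.94 ± 0.50, adjusted p 0.315 in edgeR). Lgr4, its relative, had 624 and 853 CPM at 48 h, against 378 and 244 CPM at 24 h (1.20 ± 0.51, adjusted p 0.206 in edgeR). Axin2, a feedback target of Wnt signalling, had 393 and 611 CPM at 48 h, against 642 and 635 CPM at 24 h. Wnt2 and Rspo3, endothelial signals to central hepatocytes, had log2 fold changes of -0.49 and -0.29. Wnt3 was not tested for want of counts.

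Zonated genes are described by their counts, beside 5.05% passing and a median of 0.02 over all genes tested. Of 19 pericentral genes, 2 passed as higher (Csad and Gstm1) and none as lower, with a median of 0.02. Of 22 genes listed as periportal, 1 was higher (Hsd17b13) and 1 lower (Cps1), with a median of 0.22. In the place data below, Prodh, Pon1, Fads1, Cpt2 and Hpd of this list rose towards the central vein in all 4 sections. The other members tested for place fell towards it, so the list's values do not describe portal genes alone. Cyp2e1, the most abundant central cytochrome, had 83498 and 64692 CPM at 48 h, against 101105 and 154209 CPM at 24 h (-0.74 ± 0.29, adjusted p 0.153 in edgeR). Among gluconeogenic genes none of 3 passed. The IGF axis, with Igf1, its carrier subunit Igfals and Igfbp2, had a median of 0.74 and none of 3 passed. Igfbp2 had 18109 and 18017 CPM at 48 h, against 11423 and 9942 CPM at 24 h (0.74 ± 0.34, adjusted p 0.240 in edgeR). Of 6 genes of drug metabolism, Gstm1 alone passed, and the median was 0.15. No gene passed among 3 of amino acid breakdown and transport (median -0.24), 3 of complement and vitronectin (0.14), 5 of heme synthesis and mitochondria (-0.07) or 2 claudins (-0.55). With total-count scaling the medians were 0.03 for the amino acid list and 0.17 for heme and mitochondria, so both turned in sign. The 6 panel genes in no list, among them Hif1a and its relative Epas1, had a median of 0.41 and none passed. None of the lists of endothelial, macrophage, stellate or biliary markers held a gene that passed. The stellate marker Lrat had 2194 and 2731 CPM at 48 h, against 1472 and 1520.1 CPM at 24 h (0.72 ± 0.40, adjusted p 0.360 in edgeR).

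Place along the lobule was read in square tiles of 400 coordinate units. Each tile was scored by 9 central minus 6 portal genes, without the gene tested, and each gene's share of a tile's transcripts was correlated with that score (Spearman). A correlation near 1 means that the gene rises towards the central vein. Sections held 1026 and 1248 tiles at 48 h, and 751 and 486 at 24 h. Correlations did not overlap for 26 genes higher (41.9%) and 8 genes lower (12.9%) at 48 h. With tiles split by the score into 3 zones of equal tile number, the share in the portal zone did not overlap for 25 genes higher (40.3%) and 13 genes lower (21.0%) at 48 h. In the central zone it did not overlap for 32 genes higher (51.6%) and 5 genes lower (8.06%).

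Cyp1a2, a cytochrome of central hepatocytes that oxidises caffeine and aromatic amines, had the largest change of place. Its correlation was 0.90 and 0.78 at 48 h, against 0.36 and 0.24 at 24 h. The groups were far apart, and the difference in Fisher z was 0.94 ± 0.17 (adjusted p 0.00300 in limma). The 0 h sections had 0.89 and 0.91, and the 72 h sections 0.86 and 0.85. Tiles were also put in 5 bins of equal tile number by the score. From the most portal to the most central bin, its share in section 1 at 48 h ran 1880.5, 4277, 9238, 13352 and 16724 CPM of all transcripts in the bin. In section 1 at 24 h it ran 6007, 10876, 13478, 10562 and 11657. The 48 h section climbed at every step, and the 24 h section had its highest share in the middle bin.

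Counts per cell were then read in the 3 zones. In the portal zone Cyp1a2 had 0.84 and 1.58 counts per cell at 48 h, against 2.69 and 3.15 at 24 h. In the middle zone it had 2.69 and 2.44 at 48 h, against 4.75 and 4.69 at 24 h. In the central zone it had 5.10 and 4.96 at 48 h, against 4.44 and 4.01 at 24 h. The 48 h sections were lower in the portal and middle zones and higher in the central zone. Its level over whole sections was 7577 and 6588 CPM at 48 h, against 11389.5 and 11123 CPM at 24 h, and did not pass (-0.67 ± 0.33, adjusted p 0.302 in edgeR).

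Lrp5, a Wnt co-receptor, was the other gene to pass. Its correlation was 0.65 and 0.58 at 48 h, against 0.18 and -0.06 at 24 h, with a difference in Fisher z of 0.66 ± 0.15 (adjusted p 0.0131 in limma). In the portal zone it had 3.22 and 3.99 counts per cell at 48 h, against 5.04 and 4.91 at 24 h. In the central zone it had 4.74 and 5.87 at 48 h, and 6.06 and 4.96 at 24 h, and the groups overlapped. Over whole sections Lrp5 had 11209.6 and 10775.5 CPM at 48 h, against 16646 and 14280 CPM at 24 h. This lower level did not pass (-0.51 ± 0.34, adjusted p 0.517 in edgeR). At 0 h its correlation was -0.12 and -0.20, and at 72 h it was 0.004 and -0.08, so neither time had the 48 h pattern. With the log2 ratio of the central to the portal zone in place of ranks, neither gene passed in limma (Cyp1a2 1.66 and Lrp5 0.58, adjusted p 0.441 for both). Both calls were lost when Cyp2e1 was left out of the tile totals (0.75 for Cyp1a2 and 0.43 for Lrp5, adjusted p 0.241 and 0.270 in limma), and without section 1 at 48 h (0.73 and 0.60, adjusted p 0.0580 and 0.118 in limma). Without section 2 at 24 h, Lrp5 was lost as well (0.54, adjusted p 0.0680 in limma).

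**Figure D3:**
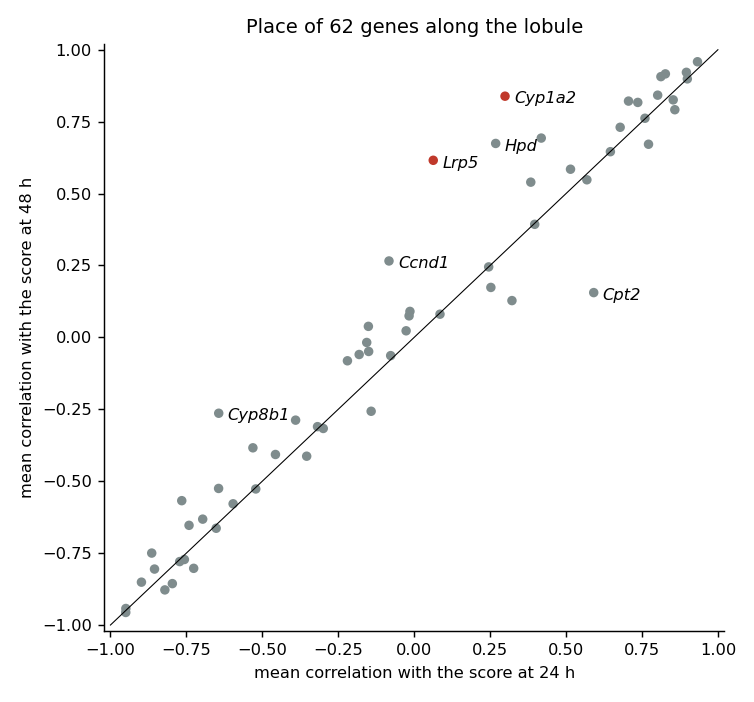
Mean correlation with the central-minus-portal score over 2 sections, at 48 h on the vertical axis and 24 h on the horizontal axis, for 62 genes; the line marks equal values and red the 2 genes that passed. Cyp1a2 and Lrp5 lie above the line and Cpt2 below it.

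None of the genes passed as more portal in limma, and 1 had an unadjusted p under 0.05. That gene was Cpt2, the inner mitochondrial carnitine palmitoyltransferase, with correlations of 0.11 and 0.21 at 48 h, against 0.63 and 0.55 at 24 h (-0.52 ± 0.17, adjusted p 0.144 in limma). Among the largest other differences were Hpd, of tyrosine breakdown (0.54), Cyp8b1 (0.48) and Pon1, a lipoprotein esterase (0.38) towards the centre, with none passing. Gls2, Cpox, Lrat and Prodh differed by -0.21, -0.21, -0.20 and -0.20. Ccnd1 had correlations of 0.38 and 0.15 at 48 h, against 0.00 and -0.17 at 24 h (0.36 ± 0.17, adjusted p 0.339 in limma). Its central zone held 3.26 and 4.01 counts per cell at 48 h, against 2.46 and 1.66 at 24 h.

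**Figure D4:**
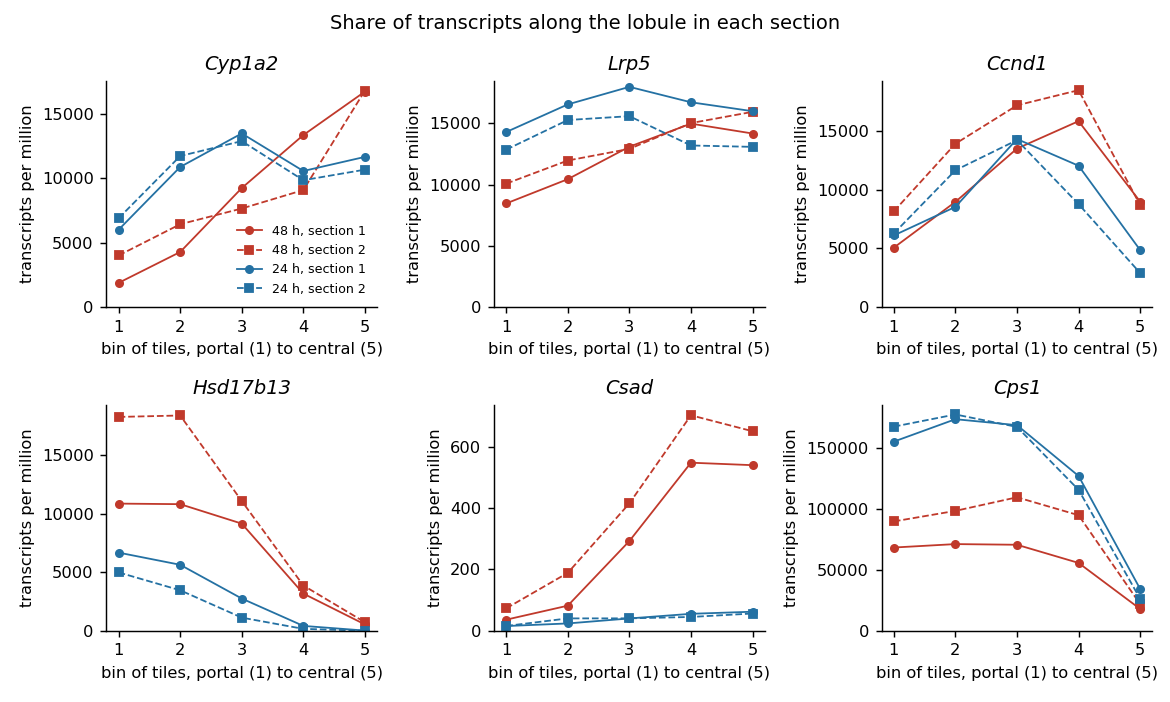
Share of transcripts, in CPM, in 5 bins of tiles from portal (1) to central (5) for 6 genes; red lines are the 48 h sections and blue lines the 24 h sections. Cyp1a2 climbs to 16724 in the most central bin of section 1 at 48 h, against 11657 in section 1 at 24 h.

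Csad, Hsd17b13 and Cps1 were also read by zone, as a description without a test. In each of the portal, middle and central zones the 48 h and 24 h sections did not overlap for these genes. They were chosen because the same sections already differed in their whole counts, so this separation is not independent evidence. Csad in the central zone had 0.226 and 0.297 counts per cell at 48 h, against 0.0228 and 0.0158 at 24 h. In the portal zone Csad had 0.0191 and 0.0433 at 48 h, against 0.00559 and 0.00850 at 24 h. Csad was highest in the central zone of both sections at each time. At 24 h its middle zone had 0.0144 in section 1 and 0.0155 in section 2, the latter close to the central value. Hsd17b13 in the portal zone had 3.92 and 6.93 at 48 h, against 2.22 and 1.71 at 24 h. In the central zone Hsd17b13 had 0.455 and 0.615 at 48 h, against 0.0450 and 0.0186 at 24 h. Its log2 change of share was 1.39 in the portal, 2.41 in the middle and 4.30 in the central zone, where its level was lowest at both times. Cps1 in the portal zone had 24.1 and 34.0 at 48 h, against 54.6 and 61.4 at 24 h. In the central zone Cps1 had 10.3 and 17.7 at 48 h, against 24.0 and 21.2 at 24 h, so it was lower there as well. Oat in the central zone had 7.48 and 14.3 at 48 h, against 27.7 and 27.4 at 24 h, so its groups did not overlap there.

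**Figure D5:**
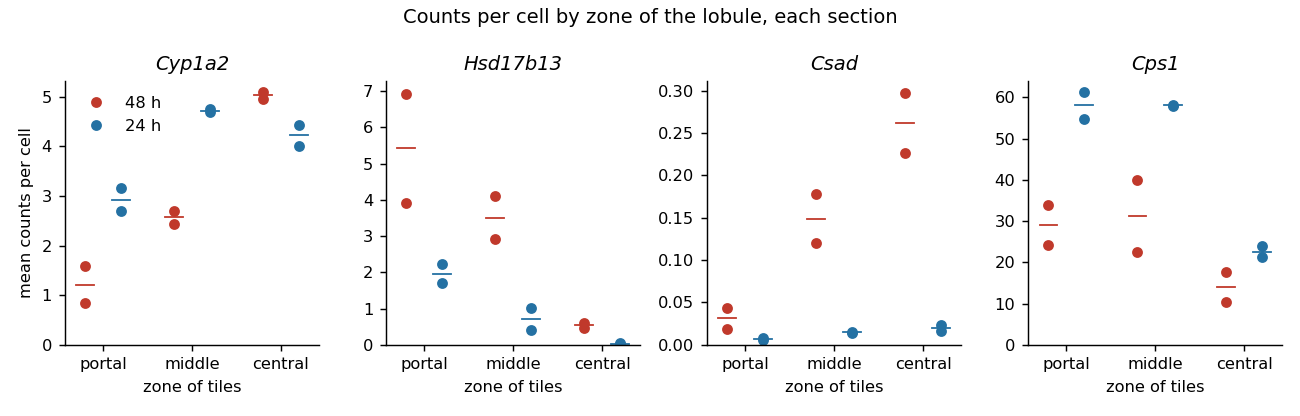
Mean counts per cell in the portal, middle and central zones of tiles for 4 genes, with 48 h (red) left of 24 h (blue); points are sections and bars their means. Cyp1a2 in the middle zone had 2.69 and 2.44 at 48 h, against 4.75 and 4.69 at 24 h.

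Cells were compared as a description, since 2 sections against 2 cannot give a two-sided exact permutation p below 0.333. After thinning each cell to 200 counts, which kept 7863 and 8046 cells at 48 h and 5275 and 3663 at 24 h, Csad was found in 5.93% and 8.0% of cells at 48 h, against 0.701% and 0.737% at 24 h. Unthinned shares were 8.23% and 13.2% at 48 h, against 1.33% and 1.26% at 24 h. Gstm1 was found in 10.1% and 11.8% of thinned cells at 48 h, against 1.42% and 1.26% at 24 h, and unthinned in 15.0% and 19.5% at 48 h, against 2.72% and 2.22% at 24 h. For both genes more cells held a transcript at 48 h in both sections. Cps1 was found in 93.8% and 90.1% of thinned cells at 48 h, against 92.6% and 89.5% at 24 h. Unthinned shares of Cps1 were 92.7% and 89.5% at 48 h, against 91.6% and 88.0% at 24 h. Its mean count per cell was 19.6 and 30.7 at 48 h, against 46.9 and 47.6 at 24 h. Hsd17b13 was found in 62.5% and 65.1% of thinned cells at 48 h, against 39.7% and 28.1% at 24 h, and unthinned in 66.2% and 69.9% at 48 h, against 46.3% and 34.7% at 24 h. Cyp1a2 was found in 63.1% and 69.1% of thinned cells at 48 h, against 78.9% and 79.0% at 24 h, and unthinned in 68.7% and 77.8% at 48 h, against 82.0% and 83.8% at 24 h. Ccnd1 was found in 65.3% and 76.0% of thinned cells at 48 h, against 58.8% and 58.5% at 24 h, and unthinned in 75.7% and 85.3% at 48 h, against 70.8% in each 24 h section.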

How the data were processed

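Per the labels' protocols, frozen livers were sectioned and measured by Resolve Biosciences under its own protocol. The authors deposited whole-number counts of every panel gene in every outlined cell for each section and, for 12 sections, a list of transcript positions. Decoding, cell outlines and the length of a coordinate unit are not given in the sources used here. Cell names were read as positions after a check against the position lists. The members, gene lists and tests were chosen with earlier results of these data known.

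Counts were summed over the cells of a section. All 7 times, in 12 libraries, entered a single quasi-likelihood fit (edgeR 4.0.16 under R 4.3.3) with TMM scaling, robust estimates and 5 residual degrees of freedom, over genes with at least 10 counts in 2 libraries, 99 of 100. TMM rests on most genes being stable, an assumption that a selected panel may break. The SE of a fold change is its size over the square root of F. Place was tested with limma 3.58.1 on Fisher-transformed correlations over tiles with at least 50 transcripts, for the 62 genes that reached 500 transcripts in each section (4 residual degrees of freedom). P-values were adjusted by Benjamini-Hochberg. The scripts were tested on simulated data. The total counts per section, 1678015 to 3498479, limit the precision of scarce genes. Cells under 200 counts were left out of thinned shares.

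Genes were named from those that passed, the 10 largest differences each way among genes whose sections did not overlap, for each list at most 2 more members with the smallest p, and fixed cyclin, zonation and Wnt genes, and the others are given by their counts. For place they were those that passed and the 5 largest changes each way. DESeq2 1.42.0, other scalings, filters, tile sizes, slide and section number as blocks and leaving out sections were tried as alternatives.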

Additional observations from a re-analysis of the deposited data

Results flagged for a closer look

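Cyp1a2 differed in opposite directions in the 2 ends of the lobule. Its share was higher at 48 h by 0.48 on the log2 scale in the central zone, and the change in the portal zone was -1.18. Of the 62 genes, 51.6% were higher at 48 h in the central zone without overlap and 8.06% lower, so a higher share there was common. In the portal zone 40.3% were higher and 21.0% lower. The difference of place of Cyp1a2 was 0.94 in Fisher z (limma, adjusted p 0.00300), and by the ratio of the end zones it did not pass in limma (adjusted p 0.441).

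Lrp5 passed the same test of place with a Fisher z difference of 0.66 (limma, adjusted p 0.0131). It did not pass in limma by the ratio of the end zones (adjusted p 0.441), with Cyp2e1 left out of totals only (adjusted p 0.270), without section 1 at 48 h (adjusted p 0.118) or without section 2 at 24 h (adjusted p 0.0680). Cyp1a2 was likewise lost with Cyp2e1 left out of totals only (adjusted p 0.241 in limma) and without section 1 at 48 h (adjusted p 0.0580 in limma).

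Cpt2 had the opposite arrangement, with a change of share of -0.14 in the central zone and 0.29 in the portal zone, and every section followed these directions. The difference between the zones did not pass in limma (adjusted p 0.144 by rank correlation and 0.595 by the ratio of the end zones). What lies behind these patterns was not tested.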

How the results depend on the processing

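The number of genes higher and lower at 48 h depended on the settings. Instead of 3 higher and 2 lower, there were 0 and 0 with total-count scaling (edgeR, 15 higher and 4 lower at an unadjusted p under 0.05), 0 and 0 relative to cell number (11 and 2 unadjusted), and 1 and 0 relative to tile number. There were 7 and 6 with DESeq2, 9 and 4 with the 24 h sections as 2 libraries, 8 and 7 with the 24 h and 48 h sections alone as separate libraries, and 5 and 4 with slide as a block. Genes lower were 4 with scaling without Cyp2e1, 4 without a filter on low counts, 0 with all transcripts (edgeR, 7 unadjusted), 1 with only the 24 h and 48 h sections, the 24 h sections summed, and 1 on slide 1 alone. Leaving out single sections gave 0 to 8 higher and 0 to 8 lower. For place, 0 genes were more central with Cyp2e1 left out of totals and score or of totals only (limma, 6 unadjusted in each) or by the ratio of the end zones (limma, 7 unadjusted), 8 with the 24 h and 48 h sections alone, and 0 to 4 leaving out single sections. 1 gene was more portal with the 24 h sections as 2 values, with the 24 h and 48 h sections alone and with slide as a block, and 0 to 1 leaving out single sections. Settings that left Cyp2e1 out of totals only or of the score only, and the counts per cell by zone, were chosen after seeing the data.

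No paired analysis was possible because the 24 h sections carry no number. With a replicate block on the other times, 2 genes were higher and 3 lower. Hsd17b13 was lost under it (1.38, adjusted p 0.0561 in edgeR), Oat passed, and Gstm2 turned to -0.011.

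Among genes that did not pass, signs turned as follows, as log2 fold changes. With scaling without Cyp2e1, DESeq2 and no filter, Ccna1 was -0.053, -0.0017 and -0.12, Ccnd1 -0.099, -0.026 and -0.14, Ccne1 -0.092, -0.019 and -0.13, Cldn2 -0.092, -0.021 and -0.16, and Gstm2 -0.16, -0.086 and -0.20. Gstm2 was also -0.00094 with the 24 h and 48 h sections alone and summed, and -0.013 with the 14 d sections summed. Yap1 was -0.070 with scaling without Cyp2e1 and -0.099 without a filter, and C8b -0.039 without a filter. With total-count scaling and relative to cell number, Arg1 was 0.084 and 0.059, C6 0.095 and 0.076, and Wnt9b 0.034 and 0.020. Fbp1 was 0.020 and Pck1 0.0088 with total-count scaling. By the ratio of the end zones, Gls2 was 0.75 and Prodh 0.063. The cause was not tested. Leaving out single sections, the ranges were -0.30 to 0.80 for Adgre1, -0.072 to 0.26 for C8b, -0.94 to 0.56 for Ccna1, -0.17 to 0.12 for Ccnd1, -0.16 to 0.20 for Ccne1, -0.45 to 0.38 for Cldn2, -0.27 to 2.34 for Cyp7a1, -0.73 to 0.14 for Fbp1, -0.24 to 0.20 for Gstm2, -1.01 to 0.31 for Pck1, -0.015 to 0.31 for Pon1, -0.98 to 0.059 for Sox9, -0.73 to 0.15 for Wnt9b and -0.18 to 0.30 for Yap1.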
